A study of Mus musculus with 9 samples.

Results

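The genes described here are 37 macrophage and microglia core genes, taken by symbol from a named list out of the 24421 gene symbols in the count tables. All 37 were found, and all 37 passed the filter on low counts that left 14054 genes for testing. They comprise 4 lineage factors and receptors (Spi1, Csf1r, Cx3cr1, Adgre1), 4 surface and cytoskeletal markers (Cd68, Aif1, Itgam, Itgb2), 7 genes of lysozyme, cathepsins and the endolysosome (Lyz2, Ctss, Ctsb, Ctsd, Mpeg1, Laptm5, Pld4) and 3 of the Ms4a family (Ms4a7, Ms4a6c, Ms4a6d). The others are 4 subunits of the phagocyte NADPH oxidase (Cybb, Cyba, Ncf1, Ncf4), 6 genes of pattern recognition (Cd14, Tlr2, Tlr4, Tlr7, Unc93b1, Clec7a), 2 lectins that bind sialic acid (Cd33, Siglec1) and 7 genes of leukocyte signalling and cytoskeleton (Ptprc, Cd53, Cd84, Coro1a, Lcp1, Lyn, Plek).

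Macrophages and microglia depend on signals through the receptor Csf1r and on the transcription factor PU.1, the product of Spi1. They take up debris and microbes, digest them in acidic endolysosomes with cathepsins and lysozyme, make superoxide with the NADPH oxidase and sense microbial and damaged material with Toll-like receptors. In the eye, microglia live in the retina and other macrophages in the choroid, and both types of cell, with monocytes from the blood, gather at a laser burn through Bruch's membrane, where new vessels grow from the choroid.

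The samples were 9 libraries of retinal pigment epithelium and choroid from 8-week-old male mice, whose strain the labels do not name. Every eye had received 4 laser burns, which give choroidal neovascularization, so all 3 groups carry the injury and no uninjured tissue was compared. Eyes were injected into the vitreous with 5 µg, at 5 mg/ml, of Fc (the antibody fragment that serves as the control protein), ABTAA (an antibody that binds angiopoietin-2 and activates the endothelial receptor Tie2) or VEGF Trap (a soluble decoy receptor that binds VEGF), with 3 libraries each. The lesion with a margin of tissue was cut by laser capture microdissection, so each library mixes vessels, pigment epithelium, choroid and immune cells. Which animal or animals gave each library is not in the labels. The p-values hence reflect only the variation among these libraries, and part of that may be technical. In such mixed tissue, fewer macrophages and less RNA of a gene per macrophage cannot be told apart.

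PU.1 binds DNA at purine-rich sites such as GAGGAA, and many of these genes are known PU.1 targets. The RefSeq promoter table (build GRCm38.p6), which runs from 250 bases before to 50 bases after each gene's start, held 24 of the 37 genes. GAGGAA, on either strand (the other strand reads TTCCTC), was present in a promoter of 14 of these 24 genes (58.33%), while 28.28% of all 32851 promoters in the table held it. Counted by promoter, 15 of the 29 promoters of these genes (51.72%) held it. The longer form GAGGAAG, which contains the shorter one, was present for 6 of the 24 genes (25%), in 6 of their 29 promoters (20.69%) and in 13.63% of all promoters. A match of letters is a description and not a site of binding. The promoters of Itgam, Aif1 and Mpeg1 are shown because, among the genes in the table, these had the smallest p-values between ABTAA and Fc. They lie at chr7:128062390-128062689, plus strand, at chr17:35176003-35176302, minus strand and at chr19:12460520-12460819, plus strand, and capitals mark each match, of which Itgam held 3, Aif1 held 1 and Mpeg1 held 0.
Itgam: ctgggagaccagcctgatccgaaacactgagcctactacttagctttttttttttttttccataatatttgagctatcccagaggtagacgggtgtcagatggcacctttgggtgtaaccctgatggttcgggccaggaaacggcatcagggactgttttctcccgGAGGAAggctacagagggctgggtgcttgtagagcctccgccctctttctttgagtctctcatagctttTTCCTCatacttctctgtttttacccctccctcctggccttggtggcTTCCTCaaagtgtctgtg
Aif1: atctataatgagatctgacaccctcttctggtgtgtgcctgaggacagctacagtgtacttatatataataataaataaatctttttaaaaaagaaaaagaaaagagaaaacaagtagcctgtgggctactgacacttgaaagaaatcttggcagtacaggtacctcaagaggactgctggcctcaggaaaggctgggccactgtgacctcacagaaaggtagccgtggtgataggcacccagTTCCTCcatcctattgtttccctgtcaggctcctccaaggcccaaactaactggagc
Mpeg1: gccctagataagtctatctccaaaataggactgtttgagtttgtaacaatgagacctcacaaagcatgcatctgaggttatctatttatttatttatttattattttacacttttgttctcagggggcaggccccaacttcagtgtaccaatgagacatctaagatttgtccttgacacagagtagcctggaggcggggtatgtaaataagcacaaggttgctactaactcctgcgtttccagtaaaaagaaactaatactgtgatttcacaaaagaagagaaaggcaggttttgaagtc

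Levels are given as CPM, counts scaled to library size, after TMM scaling, a normalization for library composition, and always in the order of libraries 1, 2 and 3 of a group. A difference is a log2 fold change with its standard error from edgeR's quasi-likelihood test, p-values are adjusted by Benjamini-Hochberg over all 14054 genes, and the threshold is an adjusted p of 0.05. Total counts ran from 6335805 to 14439835 per library. The 37 genes together held 1.12% to 1.48% of the counts, and their lowest count in any library was 27, for Siglec1. The libraries read the 3 prime ends of transcripts. Differences are tested between libraries and not between genes, and sums over genes or the word scarce refer to CPM alone.

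Several libraries stood apart for these genes. Library 1 was the highest of its group for 22 of the 37 genes with Fc, 22 with ABTAA and 23 with VEGF Trap, while over all genes tested library 1 was the highest for 36.1%, 34.0% and 36.7%. ABTAA 2 was the lowest of its group for 20 of the 37 genes, Fc 2 for 19 and VEGF Trap 3 for 17. Over all genes tested these libraries were the lowest for 31.7%, 33.6% and 35.0%. Fc 1 also carried the highest neutrophil signal: 9 neutrophil markers summed to 591 CPM there, 124 and 188 CPM in Fc 2 and 3, 84.2 to 96.7 CPM with ABTAA and 88.3 to 146 CPM with VEGF Trap, so that every ABTAA library was below every Fc library. Of the 5 neutrophil markers tested all 5 had a log2 fold change below 0 with ABTAA, 4 had an unadjusted p under 0.05 and 1, S100a9, fell by edgeR's test, with -2.43 ± 0.50 (adjusted p = 0.035). With VEGF Trap all 5 were below 0 and 0 passed. Groups were read from the sample titles. Inside the 3 Fc files the value column is headed by another name, which holds "ctrl-KO". What that name means is not given, and whether the Fc libraries differ in origin from the others was not tested.

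Markers of some other cell types moved with the groups too, and their part in the results was not tested. Of the markers of pigment epithelium (7 tested), fibroblasts (6), photoreceptors (8) and erythrocytes (5) 0 passed in any comparison. The sums of each of those lists overlapped between the groups. The 12 endothelial markers summed to 1842 to 2341 CPM with Fc, 2812 to 2963 CPM with ABTAA and 2153 to 2375 CPM with VEGF Trap. Of these markers 5 rose with ABTAA and 0 with VEGF Trap. The 10 skeletal muscle markers summed to 103 to 151 CPM with Fc, 221 to 447 CPM with ABTAA and 206 to 356 CPM with VEGF Trap. Among them 8 rose with ABTAA and 3 with VEGF Trap. The 7 melanocyte markers summed to 2105 to 2403 CPM with Fc, 2769 to 2836 CPM with ABTAA and 2215 to 4006 CPM with VEGF Trap, and 1 of them rose with ABTAA and 2 with VEGF Trap. Dct made up most of each of these sums. Whether the melanocyte markers came from melanocytes or from pigment epithelium was not tested. The 7 markers of pericytes and smooth muscle summed to 707 to 937 CPM with Fc, 946 to 1272 CPM with ABTAA and 665 to 987 CPM with VEGF Trap, and with ABTAA 0 passed while 5 had an unadjusted p under 0.05, all higher. Markers of T and NK cells summed to at most 9.55 CPM and those of B cells to at most 2.37 CPM in every library, and Pax5, which defines B cells, had no count in any.

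With ABTAA most of the 37 genes had lower values than with Fc, among them Itgam, Aif1, Tlr7, Ms4a6d, Mpeg1 and Lyz2. Of the 4 lineage genes, Csf1r, Cx3cr1 and Spi1 did not. The other lineage gene, Adgre1, differed by -0.12 ± 0.15 (adjusted p = 0.762 in edgeR's test), and its ABTAA and Fc libraries overlapped. Between ABTAA and Fc 0 of the 37 passed the threshold, while 197 of the 14054 genes tested did (1.4%, with 119 or 0.847% higher and 78 or 0.555% lower; 66 higher and 106 lower with scaling by library totals). At an unadjusted p under 0.05 there were 9 of the 37, all lower with ABTAA, and over all genes 8.23% were lower and 8.64% higher at that p. The 3 ABTAA libraries lay wholly below the 3 Fc libraries for 8 of the 37 genes and above them for 0, against 11.3% and 11.7% of all genes. The log2 fold change was below 0 for 27 of the 37 (73%) and for 50.4% of all genes, with a median of -0.17 over the 37 genes, which was -0.28 without ABTAA 1 and -0.11 without Fc 1. Other tools placed some of these genes past the threshold, each of them lower with ABTAA. DESeq2 called 6, limma-voom with quality weights 4 and edgeR without a filter on low counts 5. Itgam and Tlr7 were among those called by all 3. These settings called more of all genes as well. DESeq2 called 750 of 14054 (320 lower), limma-voom 411 of 14054 (181 lower) and edgeR without the filter 684 of 19838 (332 lower). When 1 library was left out, edgeR called 0 to 2 of the 37 genes and 0 to 385 of all genes, with 0 of all genes passing without ABTAA 2.

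Between VEGF Trap and Fc 1 of the 37 genes passed, Tlr4, which fell, while 144 of all genes tested did (1.02%, with 72 or 0.512% higher and 72 or 0.512% lower; 39 higher and 182 lower with scaling by library totals). At an unadjusted p under 0.05, 3 were higher (Unc93b1, Cd68, Cyba) and 3 lower (Tlr4, Ms4a6d, Lyz2), against 7.89% higher and 7.49% lower over all genes. The VEGF Trap libraries lay wholly above the Fc libraries for 5 genes and wholly below for 4, where 10.4% and 10.5% of all genes did. The median of the 37 log2 fold changes was -0.07, with 23 of them below 0 (62.2%) where 49.9% of all genes were, and the median became 0.041 without Fc 1. Without any 1 library 0 of the 37 genes passed, and of all genes 0 passed without Fc 2 and at most 153 without another library. Both reagents were compared with the same 3 Fc libraries, so the 2 comparisons share any deviation of those libraries.

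**Figure D1:**
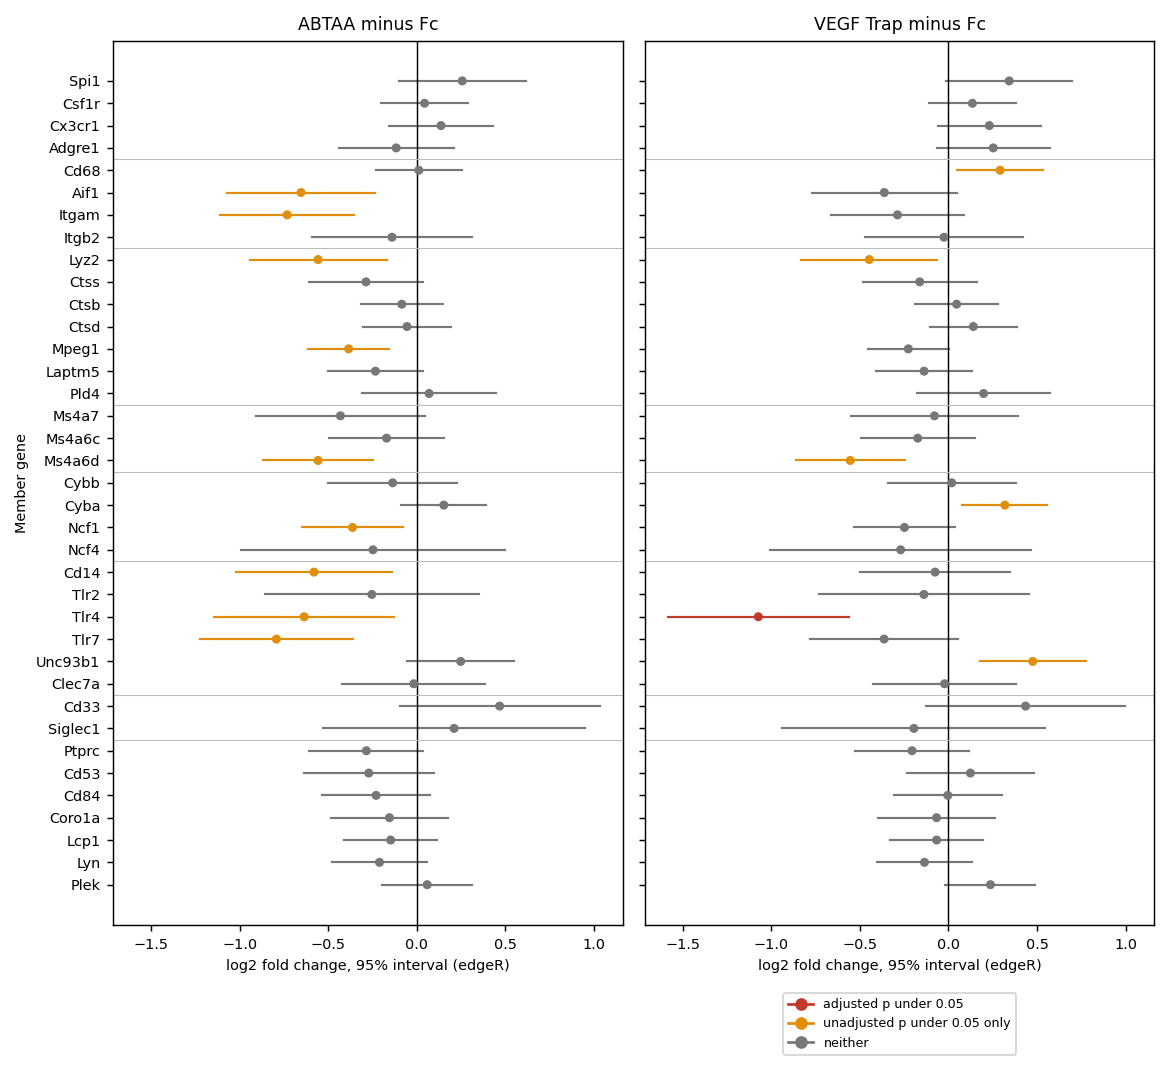
Log2 fold changes of the 37 genes by role, with bars of 95% intervals, for ABTAA minus Fc and VEGF Trap minus Fc. With ABTAA 27 of the 37 points lie below 0, and the lowest VEGF Trap point, at -1.07, is Tlr4, which passed the threshold.

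The genes that define the lineage did not pass the threshold in any comparison. Spi1, the gene of PU.1, stood at 23.5, 16.2 and 19.9 CPM with Fc, 26.9, 24.4 and 19.6 CPM with ABTAA, and 24.5, 25.4 and 25.6 CPM with VEGF Trap. Its differences were 0.26 ± 0.17 (adjusted p = 0.478) for ABTAA and 0.34 ± 0.17 (adjusted p = 0.346) for VEGF Trap, and the 3 VEGF Trap libraries all lay above the 3 Fc libraries. Csf1r, the receptor for CSF1 and interleukin-34, stood at 106, 102 and 109 CPM with Fc, 119, 97.9 and 109 CPM with ABTAA, and 108, 126 and 114 CPM with VEGF Trap. Its libraries overlapped in every comparison, and the 95% interval of its log2 difference from Fc ran from -0.20 to 0.29 with ABTAA and from -0.11 to 0.38 with VEGF Trap.

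Cx3cr1, the receptor for fractalkine and a gene often used to mark microglia, stood at 147, 172 and 167 CPM with Fc, 172, 171 and 193 CPM with ABTAA, and 153, 188 and 231 CPM with VEGF Trap. The groups overlapped, VEGF Trap 3 was the highest library, and the 95% intervals of the log2 difference were -0.16 to 0.43 with ABTAA and -0.06 to 0.52 with VEGF Trap. Adgre1, which encodes the surface marker F4/80, stood at 35.0, 23.8 and 28.8 CPM with Fc, 28.2, 26.2 and 26.3 CPM with ABTAA, and 33.2, 34.4 and 36.7 CPM with VEGF Trap. Its differences from Fc were -0.12 ± 0.15 (adjusted p = 0.762) with ABTAA and 0.25 ± 0.15 (adjusted p = 0.454) with VEGF Trap. All 3 ABTAA libraries lay below all 3 VEGF Trap libraries for Adgre1, with a difference of -0.37 ± 0.15 (adjusted p = 0.956).

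**Figure D2:**
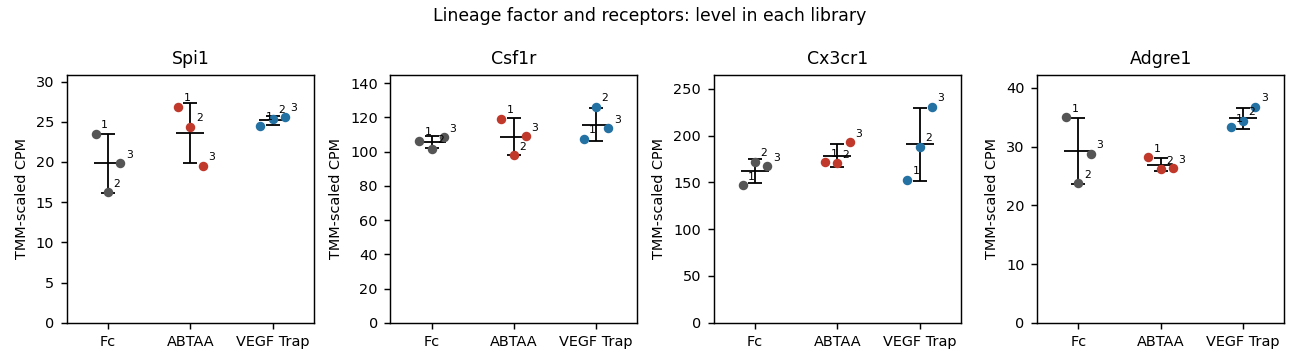
CPM of Spi1, Csf1r, Cx3cr1 and Adgre1 in each of the 9 libraries, with the mean and SD of each group. Csf1r lies between 97.9 and 126 CPM in all 9 libraries, and the groups overlap.

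Among the surface and cytoskeletal markers, Itgam and Aif1 were at their lowest with ABTAA and Cd68 was not. Itgam (chromosome 7, 128062640 to 128118491, plus strand, in mm10 with GENCODE M21, as for all gene positions here) encodes CD11b, the alpha chain of the complement receptor that pairs with the beta chain Itgb2. It stood at 109, 67.6 and 79.4 CPM with Fc, 64.2, 43.2 and 46.0 CPM with ABTAA, and 74.0, 67.7 and 67.4 CPM with VEGF Trap. Every ABTAA library was below every Fc and every VEGF Trap library, and Fc 1 was the highest of the 9. The difference from Fc was -0.73 ± 0.18 (adjusted p = 0.0553) with ABTAA and -0.29 ± 0.18 (adjusted p = 0.47) with VEGF Trap, and that between ABTAA and VEGF Trap was -0.44 ± 0.18 (adjusted p = 0.953). Neutrophils and monocytes express Itgam as well, the neutrophil marker sum was lower in all ABTAA than in all Fc libraries, and its part in the values of Itgam, Lyz2, Cd14 and Ncf1 was not tested. Without Fc 1, the library with the highest neutrophil signal, the ABTAA difference was -0.52 ± 0.17 (adjusted p = 0.169). Without ABTAA 1 it was -0.93 (adjusted p = 0.0426), and other tools and settings also placed it past the threshold. Exons of other genes on the same strand overlap Itgam and Ctsd, so the counts of both are less certain.

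Aif1 (chromosome 17, 35170991 to 35176068, minus strand) encodes IBA1, an actin-binding protein that marks microglia and macrophages. It stood at 115, 116 and 107 CPM with Fc, 79.3, 49.3 and 87.3 CPM with ABTAA, and 114, 75.1 and 74.3 CPM with VEGF Trap. All ABTAA libraries were below all Fc libraries, ABTAA 2 was the lowest of the 9, and VEGF Trap 1 reached the Fc level while VEGF Trap 2 and 3 did not. The differences from Fc were -0.65 ± 0.20 (adjusted p = 0.0983) with ABTAA and -0.36 ± 0.19 (adjusted p = 0.393) with VEGF Trap.

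Cd68, a glycoprotein of the late endosome, stood at 360.1, 321 and 336 CPM with Fc, 355, 312 and 358 CPM with ABTAA, and 467, 362 and 415 CPM with VEGF Trap. ABTAA and Fc libraries overlapped, whereas each VEGF Trap library was above each Fc and each ABTAA library. The differences were 0.01 ± 0.11 (adjusted p = 0.979) for ABTAA minus Fc, 0.29 ± 0.11 (adjusted p = 0.223) for VEGF Trap minus Fc and -0.28 ± 0.11 (adjusted p = 0.953) for ABTAA minus VEGF Trap. Itgb2 had its highest value in Fc 1 (29.2 CPM) and ranged from 16.3 to 24.6 CPM in the other 8 libraries.

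In the endolysosomal group Mpeg1 and Lyz2 had their lower values with ABTAA, and the cathepsins overlapped with Fc. Mpeg1 (chromosome 19, 12460779 to 12465283, plus strand) encodes perforin-2, a pore-forming protein of macrophages that acts on ingested bacteria. It stood at 109, 111 and 124 CPM with Fc, 87.9, 86.5 and 88.9 CPM with ABTAA, and 100.4, 99.8 and 93.4 CPM with VEGF Trap. The 3 ABTAA libraries spanned only 86.5 to 88.9 CPM, below all VEGF Trap libraries, which in turn lay below all Fc libraries. The differences from Fc were -0.39 ± 0.11 (adjusted p = 0.0815) with ABTAA and -0.23 ± 0.11 (adjusted p = 0.328) with VEGF Trap.

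Lyz2, the lysozyme of macrophages and neutrophils, stood at 139, 159.6 and 197 CPM with Fc, 114, 127 and 95.3 CPM with ABTAA, and 102, 161 and 100.1 CPM with VEGF Trap. The ABTAA libraries were below the Fc libraries, and VEGF Trap 2 lay within the Fc range while VEGF Trap 1 and 3 were near 100.1 CPM. The differences were -0.56 ± 0.18 (adjusted p = 0.126) and -0.45 ± 0.18 (adjusted p = 0.239). The end of the Lyz2 transcript has a near-identical copy in Lyz1, so its counts are uncertain. Lyz1 stood at 27.5, 31.2 and 29.5 CPM with Fc, 28.9, 29.9 and 21.7 CPM with ABTAA, and 21.3, 31.7 and 23.0 CPM with VEGF Trap, and its groups overlapped.

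The cathepsins are proteases of the lysosome. Ctss, which trims the invariant chain in antigen presentation, stood at 1683, 1947 and 1833 CPM with Fc, 1882, 1302 and 1292 CPM with ABTAA, and 1943, 1589.5 and 1348 CPM with VEGF Trap. ABTAA 1 was within the Fc range and ABTAA 2 and 3 were below it, and the same split held with VEGF Trap, where library 1 was near the highest Fc value and library 3 the lowest. The Ctss differences were -0.29 ± 0.15 (adjusted p = 0.357) and -0.16 ± 0.15 (adjusted p = 0.66). Ctsb differed by -0.09 ± 0.11 and 0.05 ± 0.11, and Ctsd by -0.06 ± 0.12 and 0.14 ± 0.12, for ABTAA and VEGF Trap. Laptm5, a lysosomal membrane protein of blood cells, differed by -0.23 ± 0.13 and -0.14 ± 0.13, and Pld4, a nuclease of endosomes, by 0.07 ± 0.18 and 0.20 ± 0.18. None of these 5 genes passed.

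The Ms4a genes encode membrane proteins with 4 spans and lie together on chromosome 19. Ms4a6d (chromosome 19, 11586604 to 11604849, minus strand) stood at 52.6, 45.8 and 56.9 CPM with Fc, 37.8, 28.8 and 39.3 CPM with ABTAA, and 35.4, 36.2 and 34.1 CPM with VEGF Trap. Every library of either reagent was below every Fc library. The differences from Fc were alike in size, -0.56 ± 0.15 (adjusted p = 0.0665) with ABTAA and -0.55 ± 0.14 (adjusted p = 0.0698) with VEGF Trap, and the 95% interval of the difference between the reagents was -0.32 to 0.31. Ms4a7 stood at 153, 149 and 132 CPM with Fc, 155, 82.5 and 83.7 CPM with ABTAA, and 183, 113 and 114 CPM with VEGF Trap. Its ABTAA 1 value was above all Fc values and ABTAA 2 and 3 were below them, so that the difference was -0.43 ± 0.22 (adjusted p = 0.348). Ms4a6c ranged from 99.2 to 146 CPM over the 9 libraries with overlapping groups.

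Of the 4 subunits of the NADPH oxidase 0 passed, and their values differed in direction. Cyba, the smaller chain of the membrane cytochrome, stood at 271, 246 and 244 CPM with Fc, 308, 270.2 and 266 CPM with ABTAA, and 304, 359 and 286 CPM with VEGF Trap. All 3 VEGF Trap libraries were above the Fc libraries, with a difference of 0.32 ± 0.11 (adjusted p = 0.175), and the ABTAA difference was 0.15 ± 0.11 (adjusted p = 0.544). Cybb, the catalytic chain, stood at 306, 230.5 and 269 CPM with Fc, 314, 197 and 222 CPM with ABTAA, and 331, 249.8 and 234 CPM with VEGF Trap. Library 1 was the highest in each group, the groups overlapped, and the differences were -0.14 ± 0.17 (adjusted p = 0.748) with ABTAA and 0.02 ± 0.17 (adjusted p = 0.978) with VEGF Trap. Ncf1, a cytosolic organizer of the complex, stood at 93.4, 69.8 and 80.0 CPM with Fc, 56.9, 61.9 and 70.6 CPM with ABTAA, and 66.4, 72.2 and 66.0 CPM with VEGF Trap.

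ABTAA 3 and VEGF Trap 2 lay just above the lowest Fc value of Ncf1 and the other libraries of both reagents below it, and the differences were -0.36 ± 0.13 (adjusted p = 0.179) and -0.25 ± 0.13 (adjusted p = 0.397). Without Fc 1 the ABTAA difference of Ncf1 was -0.25. An exon of Gtf2ird2 on the other strand overlaps Ncf1, and the strand setting of the counting is not given in the sources used here. Ncf4 was scarce, at 4.32 to 10.5 CPM, and overlapped.

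**Figure D3:**
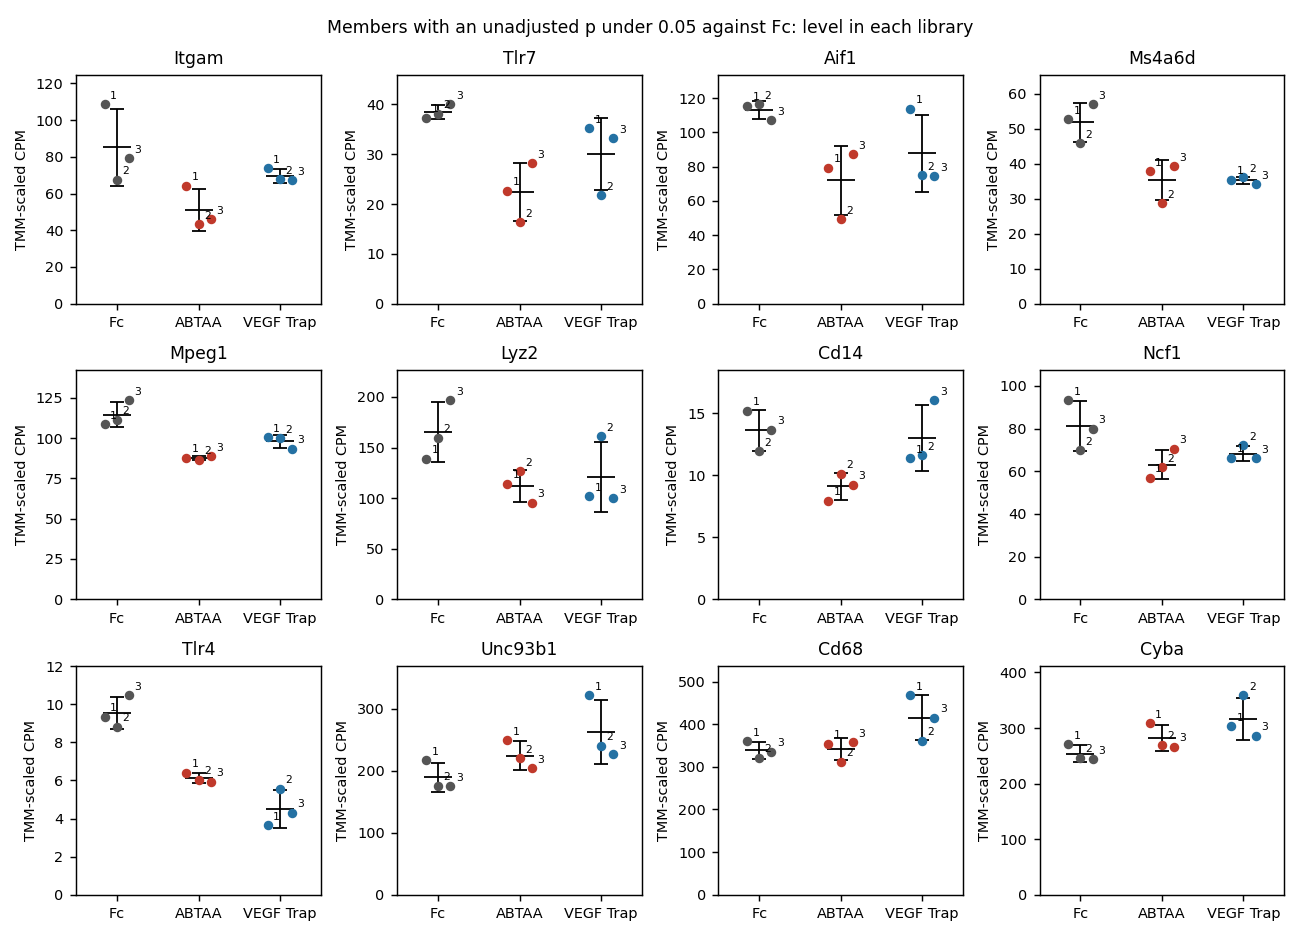
CPM of the 12 genes with an unadjusted p under 0.05 against Fc in each of the 9 libraries, with the mean and SD of each group. Itgam and Tlr7 lie lower in all 3 ABTAA libraries than in all 3 Fc libraries, and Tlr4 is at its lowest with VEGF Trap, at 3.65 to 5.57 CPM.

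Pattern recognition held the gene that passed. Tlr4 (chromosome 4, 66827584 to 66930284, plus strand) encodes the receptor for bacterial lipopolysaccharide, which also binds products of damaged tissue. It stood at 9.34, 8.83 and 10.5 CPM with Fc, 6.40, 6.05 and 5.94 CPM with ABTAA, and 3.65, 5.57 and 4.30 CPM with VEGF Trap. The 3 groups did not overlap: every Fc library was highest, every VEGF Trap library lowest and the ABTAA libraries between. Tlr4 fell from 9.54 ± 0.84 CPM with Fc to 4.51 ± 0.98 CPM with VEGF Trap (SD, n = 3), a log2 difference of -1.07 ± 0.24 (adjusted p = 0.0463) with a 95% interval of -1.58 to -0.56. The ABTAA difference of -0.64 ± 0.24 (adjusted p = 0.183) did not pass, nor did the difference between the reagents, 0.44 ± 0.25 (adjusted p = 0.962). The call was close to the threshold: without any 1 of the 9 libraries the adjusted p was 0.0514 to 0.160, with log2 differences of -1.27 to -0.93. These are low counts, at most 137 in a library.

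Tlr7 (chromosome X, 167304929 to 167330558, minus strand), an endosomal receptor for single-stranded RNA, stood at 37.4, 38.2 and 40.0 CPM with Fc, 22.7, 16.4 and 28.2 CPM with ABTAA, and 35.2, 21.7 and 33.3 CPM with VEGF Trap. The Fc libraries were close together, all ABTAA libraries were lower, and VEGF Trap 1 and 3 lay just below the Fc range. The differences were -0.79 ± 0.20 (adjusted p = 0.0619) with ABTAA and -0.36 ± 0.20 (adjusted p = 0.402) with VEGF Trap. Without ABTAA 3 the ABTAA difference was -0.98 (adjusted p = 0.0469).

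Unc93b1 (chromosome 19, 3935186 to 3949340, plus strand), the chaperone that carries Tlr7 and the other nucleic acid receptors to endosomes, went the other way in its values, at 217, 176 and 175 CPM with Fc, 249.5, 219.9 and 204 CPM with ABTAA, and 322, 240.4 and 227 CPM with VEGF Trap. Every VEGF Trap library was above every Fc library. Its differences were 0.48 ± 0.14 (adjusted p = 0.108) with VEGF Trap and 0.25 ± 0.14 (adjusted p = 0.404) with ABTAA.

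Cd14, the co-receptor that hands lipopolysaccharide to Tlr4, stood at 15.2, 12.0 and 13.7 CPM with Fc, 7.95, 10.1 and 9.23 CPM with ABTAA, and 11.4, 11.6 and 16.1 CPM with VEGF Trap. The ABTAA libraries lay below all Fc and all VEGF Trap libraries, with differences of -0.58 ± 0.21 (adjusted p = 0.16) from Fc and -0.51 ± 0.21 (adjusted p = 0.956) from VEGF Trap, and -0.08 ± 0.20 (adjusted p = 0.909) between VEGF Trap and Fc. Tlr2, the receptor for bacterial lipopeptides, was highest in Fc 1 (10.4 CPM) and ranged from 4.99 to 8.46 CPM in the other libraries. Clec7a, which encodes the receptor dectin-1 for fungal glucans, ranged from 203 to 359.8 CPM, both within the ABTAA group.

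The lectins of the Siglec family did not pass in any comparison. Cd33 differed by 0.47 ± 0.27 (adjusted p = 0.401) with ABTAA and 0.44 ± 0.26 (adjusted p = 0.466) with VEGF Trap, and its lowest library was Fc 2 at 6.79 CPM. Siglec1, which marks macrophages under interferon, was scarce, at 2.44 to 6.10 CPM, and the end of its transcript has near-identical copies elsewhere.

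Of the 7 genes shared with other leukocytes 0 passed against Fc. Ptprc, which encodes the leukocyte marker CD45, stood at 112, 115 and 124 CPM with Fc, 118, 84.8 and 84.5 CPM with ABTAA, and 122, 89.0 and 92.7 CPM with VEGF Trap. ABTAA 1 was within the Fc range and ABTAA 2 and 3 were below it, with a difference of -0.29 ± 0.15 (adjusted p = 0.363), and VEGF Trap gave the same split with -0.21 ± 0.15 (adjusted p = 0.562). Cd53, a tetraspanin of leukocytes, stood at 33.1, 24.4 and 24.6 CPM with Fc, 26.3, 23.7 and 17.4 CPM with ABTAA, and 28.7, 30.2 and 30.4 CPM with VEGF Trap. Each ABTAA library of Cd53 was below each VEGF Trap library, with a difference of -0.40 ± 0.17 (adjusted p = 0.956), and both groups overlapped with Fc. Plek, a substrate of protein kinase C, was above all Fc libraries in all VEGF Trap libraries, by 0.24 ± 0.12 (adjusted p = 0.363). The end of the Plek transcript has a near-identical copy in Chek2, so its counts are uncertain. For Cd84, Coro1a, Lcp1 and Lyn the log2 differences from Fc were -0.23 ± 0.14, -0.15 ± 0.16, -0.15 ± 0.12 and -0.21 ± 0.13 with ABTAA, and all 4 overlapped with Fc.

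**Figure D4:**
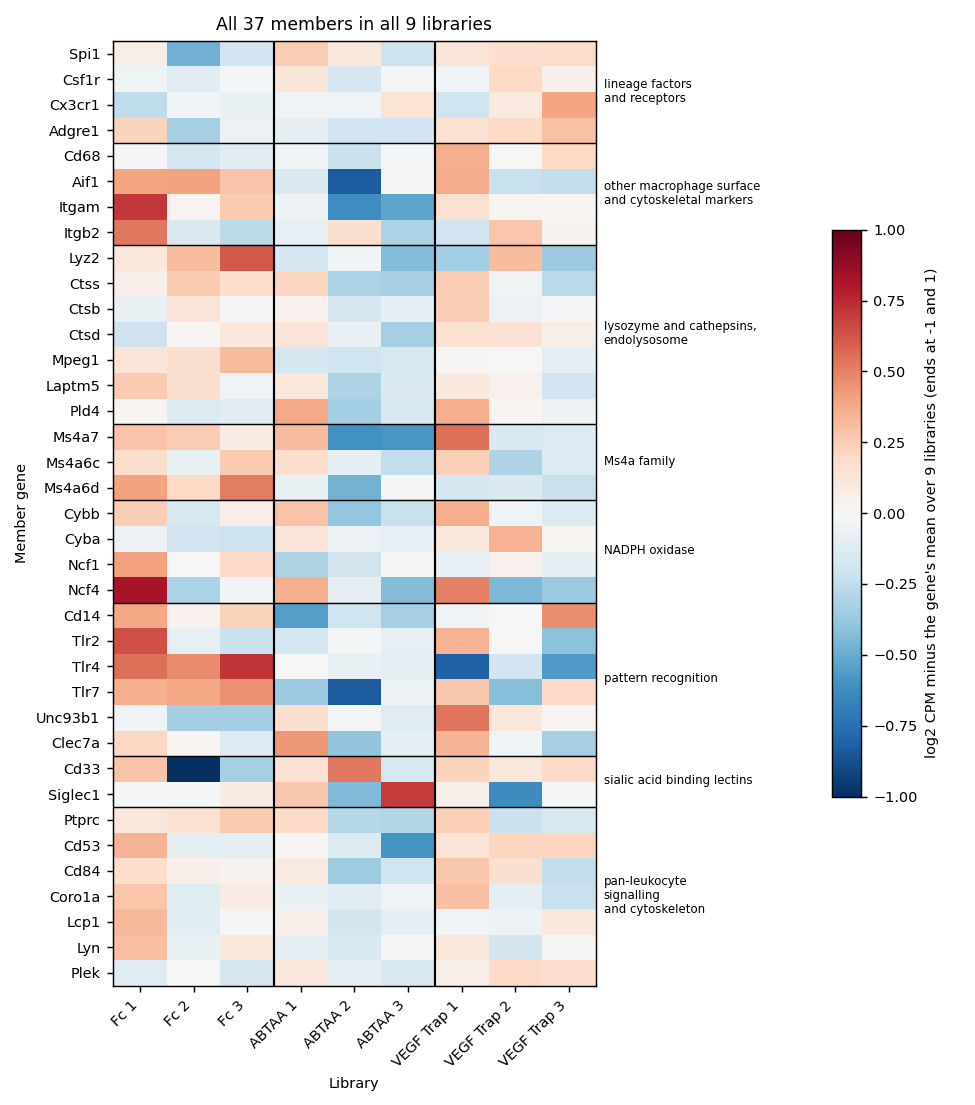
Log2 CPM of the 37 genes in the 9 libraries, each gene relative to its mean over all libraries, ordered by role, with the colour scale limited to 1 log2 unit either way. Library 1 of each group carries the highest value of that group for 22, 22 and 23 genes with Fc, ABTAA and VEGF Trap.

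The reagents were also compared directly. Of all 14054 genes 0 passed (0%) with edgeR and 5 with DESeq2, and of the 37 genes 0 passed with either. At an unadjusted p under 0.05 there were 711 genes in all (5.06%, with 2.64% higher and 2.42% lower with ABTAA) and 5 of the 37, all lower with ABTAA: Itgam, Cd68, Adgre1, Cd14 and Cd53. The ABTAA libraries lay wholly below the VEGF Trap libraries for 6 of the 37 genes, where 4.74% of all genes did, and wholly above for 1, Tlr4, where 5.14% did. The log2 difference was below 0 for 31 of the 37 genes (83.8%) and for 50.5% of all genes, with a median of -0.12, or -0.22 without ABTAA 1. The summed level of the 37 genes did not separate the groups, at 12740 to 13960 CPM with Fc, 11056 to 14378 CPM with ABTAA and 13102 to 14993 CPM with VEGF Trap. Without Ctsd, the largest term of that sum, it ran from 6574 to 6778, from 5344 to 6869 and from 5947 to 7360 CPM.

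Other genes of the same pathways were read from lists. Of 32 further macrophage surface and secreted genes tested, 2 fell with ABTAA and 0 changed with VEGF Trap. Fcgr3, a low-affinity receptor for antibody, was at 218 ± 24.7 CPM with Fc and 137 ± 10.1 CPM with ABTAA (SD, n = 3), a difference of -0.67 ± 0.13 (adjusted p = 0.032). C1qb, a chain of the complement starter C1q, was at 86.7 ± 7.23 CPM with Fc and 59.3 ± 4.88 CPM with ABTAA, a difference of -0.55 ± 0.13 (adjusted p = 0.0473). The median of that list was -0.25 with ABTAA and -0.005 with VEGF Trap.

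Of 22 further lysosome genes described here 1 rose with ABTAA and 1 rose with VEGF Trap. Tfeb, the transcription factor that drives lysosome genes, was at 68.4 ± 5.47 CPM with Fc and 108 ± 20.8 CPM with ABTAA, a difference of 0.66 ± 0.15 (adjusted p = 0.0469), and its VEGF Trap difference was 0.63 ± 0.15 (adjusted p = 0.0576). Ctsh, an aminopeptidase of the cathepsin family, was at 247 ± 12.2 CPM with Fc and 379.6 ± 58.7 CPM with VEGF Trap, a difference of 0.62 ± 0.14 (adjusted p = 0.0466). For 10 of the 22 genes all VEGF Trap libraries lay above all Fc libraries, where 10.4% of all genes did. The list's median was 0.04 with ABTAA and 0.16 with VEGF Trap. Without ABTAA 2 the ABTAA calls in these lists were lost, and without Fc 2 the VEGF Trap calls, since 0 of all genes passed then.

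In the other 7 lists 0 genes passed in any comparison. Of 18 further Toll-like receptor and adaptor genes, Ticam2, an adaptor of Tlr4, had the smallest p against Fc, at -0.90 ± 0.33 (adjusted p = 0.178) with ABTAA. Myd88, the adaptor shared by most Toll-like receptors, differed by -0.24 ± 0.15 with ABTAA and -0.20 ± 0.15 with VEGF Trap. Of 7 further NADPH oxidase genes, Rac2, the small GTPase of the complex, differed by -0.52 ± 0.23 (adjusted p = 0.261) with ABTAA, and Hvcn1, a proton channel with the smallest p of that list, by 0.70 ± 0.27 (adjusted p = 0.949) between ABTAA and VEGF Trap. Of 9 genes around CSF1 and fractalkine, Tgfbr1, a receptor for TGF-beta, had the smallest p, with -0.41 ± 0.15 (adjusted p = 0.179) for ABTAA.

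The ligands of the lineage receptors are in the same list. Csf1 stood at 48.8, 49.7 and 42.4 CPM with Fc, 51.6, 54.6 and 56.3 CPM with ABTAA, and 52.0, 50.8 and 60.0 CPM with VEGF Trap. Il34, the other Csf1r ligand, stood at 54.7, 61.8 and 71.6 CPM with Fc, 68.2, 85.5 and 89.2 CPM with ABTAA, and 56.7, 89.9 and 99.3 CPM with VEGF Trap. For Csf1 every library of either reagent was above every Fc library, while Il34 overlapped. The differences of Csf1 were 0.21 ± 0.13 (adjusted p = 0.44) and 0.21 ± 0.13 (adjusted p = 0.472), and those of Il34 0.37 ± 0.18 (adjusted p = 0.333) and 0.38 ± 0.18 (adjusted p = 0.337). Cx3cl1, which encodes fractalkine, differed by 0.39 ± 0.19 and 0.27 ± 0.19. Of 14 myeloid transcription factors, Gata2, a factor of mast cells and progenitors, had the smallest p, at 0.90 ± 0.30 (adjusted p = 0.932) between the reagents. Irf8, the partner of PU.1, differed by 0.32 ± 0.13 (adjusted p = 0.226) with VEGF Trap, and all 3 of those libraries were above the Fc libraries.

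Of 21 further leukocyte signalling genes described here, Ptpn6, which encodes the phosphatase SHP-1, had the smallest p, at -0.55 ± 0.18 (adjusted p = 0.124) with ABTAA, and its ABTAA libraries all lay below its Fc libraries. Of 6 genes of beta-2 integrins and their partners, Icam2, a ligand that endothelium also expresses, had the smallest, at 0.47 ± 0.14 (adjusted p = 0.0974). Of 4 further Ms4a genes, Ms4a6b had the smallest, at -0.28 ± 0.17 (adjusted p = 0.461) with VEGF Trap.

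**Figure D5:**
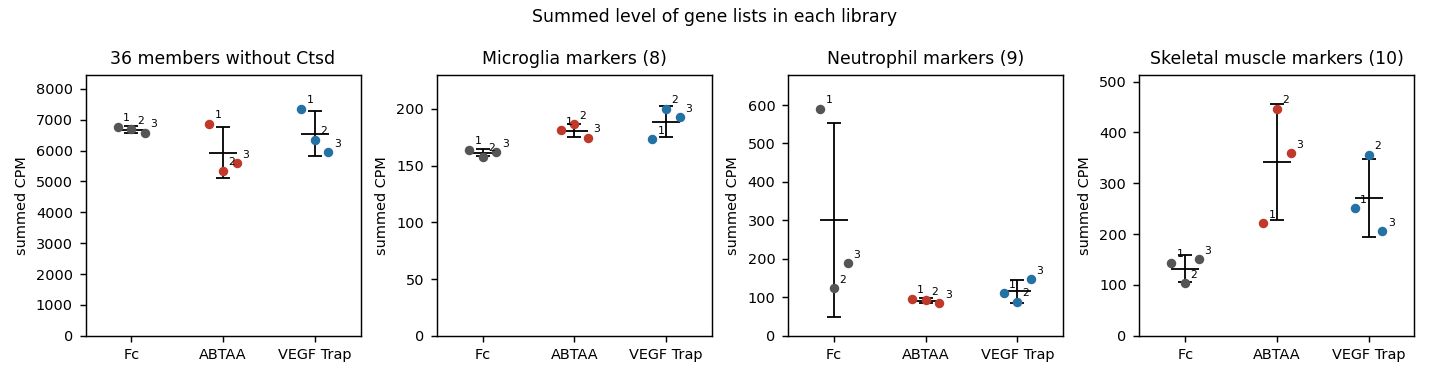
Summed CPM of 36 of the 37 genes (without Ctsd) and of microglia, neutrophil and skeletal muscle markers in each of the 9 libraries, with the mean and SD of each group. The neutrophil sum of 591 CPM in Fc 1 stands above the other neutrophil sums. The sums of the microglia list, mostly Olfml3 and Fcrls, are 158 to 164 CPM with Fc, 175 to 187 CPM with ABTAA and 173 to 200.3 CPM with VEGF Trap.

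The label of microglia was checked against 8 markers of these cells. Their sum was 158 to 164 CPM with Fc, 175 to 187 CPM with ABTAA and 173 to 200.3 CPM with VEGF Trap, so that both reagents lay above Fc and overlapped with each other, and Olfml3 and Fcrls made up most of it. Of the 7 markers tested 0 passed in any comparison with edgeR, and at an unadjusted p under 0.05 there was 1 higher with ABTAA and 2 higher with VEGF Trap. Tmem119 ranged from 11.1 to 24.1 CPM over the 9 libraries and P2ry12, a receptor that defines them, from 0.14 to 2.08 CPM, where 3 counts, the floor used here, are 0.209 to 0.469 CPM. The 6 monocyte markers summed to 146 to 210 CPM with Fc, 133 to 169 CPM with ABTAA and 146 to 178 CPM with VEGF Trap. Other microglia markers were scarce too: Sall1 at 0.08 to 1.19 CPM, Siglech at 0.09 to 2.03 CPM and Gpr34 at 0.78 to 1.87 CPM. Sall1 had 1, 2 and 1 counts with Fc, 8, 12 and 7 with ABTAA, and 9, 9 and 7 with VEGF Trap. For Gpr34 all ABTAA libraries lay below all Fc libraries. Transcripts from both lists were thus detected, and in the microglia list most came from Olfml3 and Fcrls, while P2ry12, Sall1, Siglech and Gpr34 were scarce. The sum of that list hence mainly reads Olfml3 and Fcrls, and which cells gave their transcripts was not tested. Libraries of whole tissue do not assign the 37 genes to microglia or to monocytes.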

How the data were processed

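The authors deposited raw counts, whole numbers for each gene symbol without normalization, from LEXOGEN QuantSeq 3 prime libraries per the labels' protocols. The submitters' processing notes name Bowtie2, edgeR and mm10. No source used here states the annotation, the counting tool or its strand setting. Groups came from the sample titles. After filterByExpr and TMM scaling, a single model of the 9 libraries (6 residual degrees of freedom) was fitted in edgeR 4.0.16 under R 4.3.3, with its quasi-likelihood test. Standard errors were derived from the log2 fold change and its F, and intervals cover 95%. Counts of 7 of the 37 genes shared a divisor above 1 in every library, as did those of 15.6% of genes tested. Each gene past the threshold or at an unadjusted p under 0.05 against Fc, with 9 marker genes, was to be given in every library, and listed pathways by genes past the threshold or the gene of smallest p. Some listed genes outside the 37 are not reported here, and list counts and sums leave them out. The 37 genes and the lists were chosen with earlier results of these data known. Gene positions are from GENCODE M21 (mm10), copies of transcript ends from BLAST+ 2.17.0, and figures from matplotlib 3.10.9. Scripts were tested on simulated data. Alternatives were DESeq2 1.42.0, limma-voom (limma 3.58.1), other scalings, filters and samples, a replicate block, counts divided by their divisor and each library left out.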

Additional observations from a re-analysis of the deposited data

How the results depend on the processing

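Of the 37 genes, edgeR called 0 for ABTAA minus Fc, against 6 with DESeq2, 4 with limma-voom, 1 with library totals, 5 with no filter, 1 with at least 10 counts in 6 libraries, 1 with only the compared groups, 3 with the replicate block, 2 with counts divided by their common divisor and 0 to 2 when 1 library was left out. Of all genes it called 197, against 750 with DESeq2, 411 with limma-voom, 172 with library totals and 684 of the 19838 genes tested with no filter. There were 238 of 13235 with at least 10 counts in 6 libraries, 277 with only the compared groups and 334 with the replicate block. Counts divided by their common divisor gave 281, and leaving 1 library out gave 0 to 385. The median of the 37 then ran from -0.28 (without ABTAA 1) to -0.11 (without Fc 1).

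For VEGF Trap minus Fc it called 1 of the 37, against 3 with DESeq2, 2 with library totals, 3 with no filter, 0 with only the compared groups, 2 with the replicate block and 0 without any 1 library. Of all genes it called 144, against 651 with DESeq2, 242 with limma-voom, 221 with library totals and 616 of the 19838 genes tested with no filter. There were 116 with only the compared groups, 300 with the replicate block and 246 with counts divided by their common divisor. Leaving 1 library out gave 0 to 153. The median, -0.07, was -0.15 with library totals and -0.19 (without VEGF Trap 1) to 0.041 (without Fc 1) when 1 library was left out. Tlr4 passed in 8 of 9 other settings of tool, scaling, filter or model, the exception being only the compared groups (adjusted p = 0.0654), and in 0 of 9 with 1 library left out.

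For ABTAA minus VEGF Trap 0 of the 37 passed in any setting. Of all genes 0 passed with edgeR, 5 with DESeq2, 30 of 19838 with no filter, 1 with the replicate block and 0 without any 1 library. With 1 library left out the median ran from -0.22 (without ABTAA 1) to -0.086 (without VEGF Trap 1), and with library totals it was -0.085. With 1 library left out, the sign turned to a value beyond its standard error, or from one, for Pld4 (ABTAA minus Fc, -0.18 without ABTAA 1 and up to 0.22), Itgb2 (VEGF Trap minus Fc, 0.26 without Fc 1 and down to -0.17) and Clec7a (ABTAA minus VEGF Trap, -0.26 without ABTAA 1 and up to 0.19), and the cause was not tested. The genes called in some setting were Aif1, Itgam, Lyz2, Mpeg1, Ms4a6d and Tlr7 with ABTAA and Tlr4, Ms4a6d and Unc93b1 with VEGF Trap.

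Same-numbered libraries of different groups had correlations of 0.013 to 0.112 between their deviations from the group means. All 9 were positive and 2 of them were over 0.1, while other pairs had -0.092 to 0.037. The labels do not say what the number marks, so the main model took no pairing. Whether same-numbered libraries share a source was not tested. With the replicate block Itgam (adjusted p = 0.0204), Tlr7 (adjusted p = 0.0296) and Ms4a6d (adjusted p = 0.0485) passed for ABTAA and Unc93b1 (adjusted p = 0.0331) beside Tlr4 for VEGF Trap. The scarcest genes, Siglec1, Ncf4 and Tlr4, had lowest counts of 27, 28 and 31 in a library, so that differences of their size were less precise. Only 3 libraries a group limit all of these tests.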

Other observations

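Markers of dendritic cells, which present antigen and share a myeloid origin with macrophages, were counted beside the 37 genes. The 8 markers summed to 53.2 to 67.6 CPM with Fc, 70.7 to 81.0 CPM with ABTAA and 74.7 to 82.0 CPM with VEGF Trap. Both reagents thus lay above Fc without overlap in the sum, while 0 of the 6 markers tested passed. Itgax, also a beta-2 integrin gene, made up most of each sum. It stood at 50.3, 49.5 and 39.8 CPM with Fc, 53.1, 57.2 and 45.1 CPM with ABTAA, and 46.9, 60.6 and 53.7 CPM with VEGF Trap. For Itgax, Zbtb46, Xcr1 and Clec9a both reagents overlapped with Fc. Batf3, a transcription factor of dendritic cells, stood at 3.36, 3.56 and 3.59 CPM with Fc, 5.68, 6.05 and 6.88 CPM with ABTAA and 4.81, 6.27 and 4.71 CPM with VEGF Trap. Its differences from Fc were 0.82 ± 0.27 (adjusted p = 0.131) with ABTAA and 0.59 ± 0.27 (adjusted p = 0.301) with VEGF Trap in edgeR's test. Ccr7, the chemokine receptor of migrating dendritic cells, stood at 3.55, 2.89 and 1.83 CPM with Fc, 4.13, 5.36 and 2.82 CPM with ABTAA and 9.95, 5.16 and 6.10 CPM with VEGF Trap. Every VEGF Trap library of Ccr7 was above every Fc library, with a difference of 1.37 ± 0.36 (adjusted p = 0.0709).

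The 6 proliferation markers summed to 408 to 414 CPM with Fc, 335 to 413 CPM with ABTAA and 255 to 380 CPM with VEGF Trap, and 0 of them passed in either comparison with Fc. Their cell of origin is not given by these libraries.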
